A study of Mus musculus with 6 samples.

Results

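The Polycomb and trithorax chromatin genes described here were 42 named genes of mouse ovarian granulosa cells (GCs), chosen by gene name for the complexes they encode. They were 42 of the 54532 genes listed, and all 42 were among the 14463 that were tested, those whose FPKM averaged 0.5 or more over the samples. FPKM counts fragments for each kilobase of a gene and corrects for sequencing depth. RNA-seq was done on 3 samples from mice given PBS and 3 samples from mice given cyclophosphamide (CTX), an alkylating drug, with GCs collected 6 h later. The mice were female ICR animals of 3 weeks that had all received 5 IU of PMSG, a gonadotropin that starts follicle growth, 22 h before PBS or 120 mg/kg CTX was injected. Each sample pooled the GCs of 3 mice, so differences between single mice cannot be seen. The question for these genes was whether the transcripts of the enzymes that write, read and erase H3K27me3, and of their opponents, differed between CTX and PBS at this early time.

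Polycomb and trithorax proteins keep genes off or on through marks on histones. PRC2 methylates histone H3 on lysine 27 through EZH1 or EZH2, PRC1 adds ubiquitin to histone H2A through RING1 or RNF2, and the KDM6 enzymes remove methyl groups from lysine 27. The KMT2 enzymes, the trithorax side, methylate histone H3 on lysine 4 at promoters and enhancers. Across tissues these complexes are known for keeping developmental genes silent and for their part in switches of cell state, and GCs pass through such a switch when they proliferate and then differentiate under gonadotropins.

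Many of these genes start in stretches rich in CpG, the dinucleotide that KDM2B, KMT2A and KMT2B recognise when unmethylated. RefSeq starts on GRCm38.p6 were found for 35 of the 42 genes, with 49 starts in all, and the 250 bases before each were read. The ratio of observed to random CpG was at least 0.6 before a start of 32 of the 35 genes (91.4%), against 36.5% of all 27025 genes in that table. Its median was 0.772 over the 49 windows and 0.374 over all 32851 windows. These backgrounds were not limited to genes expressed in GCs, whereas all 42 genes were expressed. A comparison with expressed genes alone was not made. Parts of the windows of Ezh2, Suz12 and Kdm6a are shown to let the CpG density be seen. Ezh2 and Suz12 encode the main methyltransferase of PRC2 and its scaffold, and Kdm6a a demethylase of the same lysine. Each part is the longest stretch without an exon, cut to the 150 bases nearest the start where it was longer. Capitals mark each CpG, and all 3 are written 5′ to 3′ on the gene's own strand.
Ezh2: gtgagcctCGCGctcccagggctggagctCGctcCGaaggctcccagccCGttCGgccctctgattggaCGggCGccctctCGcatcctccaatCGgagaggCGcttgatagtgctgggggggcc
Suz12: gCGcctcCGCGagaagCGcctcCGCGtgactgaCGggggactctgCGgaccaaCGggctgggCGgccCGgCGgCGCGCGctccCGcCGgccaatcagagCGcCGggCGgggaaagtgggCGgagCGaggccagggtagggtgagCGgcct
Kdm6a: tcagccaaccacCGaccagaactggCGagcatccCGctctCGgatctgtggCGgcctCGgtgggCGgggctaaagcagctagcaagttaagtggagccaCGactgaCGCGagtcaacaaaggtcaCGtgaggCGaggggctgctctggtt
The Ezh2 stretch is chr6:47595059-47595183 on the minus strand and ends 28 bases before the RefSeq start. The Suz12 stretch is chr11:79992956-79993105 on the plus strand, and the Kdm6a stretch is chrX:18162425-18162574 on the plus strand. Both end at the base before the start. No exon of GENCODE M21 overlaps any of the 3, although the Ezh2 stretch lies inside the span that the deposited table gives this gene. They hold 11, 23 and 12 CpGs in 125, 150 and 150 bases. Short motifs were searched on both strands of all windows. The E-box CACGTG stood in 9 of the 49 windows (18.4%), against 6.02% of all windows and 9.49% of those with a CpG ratio of at least 0.6. An E2F motif, TTTCCCGC or TTTGGCGC, stood in 2 windows, those of Phf19 and Suz12 (4.08%, against 1.3% of all windows and 2.95% of the CpG-rich ones). That of Suz12 lay in the part of its window that is not printed here. CCAAT stood in 15 windows (30.6%, against 33.9% and 33.4%). The YY1 motif ATGGCGGC stood in none of them, in 1.03% of all windows and in 2.54% of the CpG-rich ones. The motifs CCGGAAGT, TGACGTCA and GCATGCGC stood in 1 window each, against 2.88%, 1.55% and 2.26% of all windows and 6.5%, 3.25% and 5.35% of the CpG-rich ones. Windows of 1 gene can overlap, and a match of letters is not a bound site.

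The libraries held 16005869 to 17790353 reads on genes in PBS and 17727770 to 18455011 in CTX, as rebuilt from the FPKM values. Each of the 42 genes had between 123 and 6911 reads in every sample. All 8 granulosa markers were expressed, with a summed level of 11396 to 12599 FPKM in PBS and 10197 to 10864 FPKM in CTX, most of it from Inha. Of the 8, 7 had a lower mean in CTX. All CTX samples lay below all PBS samples in 6 of the 8, against 14.1% of all tested genes. The median log2 fold change of the 8 was -0.43, and none passed the adjusted threshold in limma. Amh alone was higher, at a mean of 49.4 FPKM in PBS and 106 FPKM in CTX. Its CTX replicates 1, 2 and 3 stood at 54.3, 179 and 85.5 FPKM. The other markers except Inha had their lowest CTX value in replicate 2. Cyp19a1, at a mean of 60.5 FPKM in PBS, stood at 47.6, 6.61 and 32.5 FPKM in CTX replicates 1, 2 and 3. CTX replicate 2 stood apart from the other samples. It lay at 74.7 on the first principal component of all tested genes, which held 46.8% of the variance, and the other 5 samples lay between -26.6 and 13.2. Values without it are given beside those of the 42 genes in which it stood out most.

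No Polycomb or trithorax gene passed the study's rule of an adjusted p below 0.05 and more than 2-fold between CTX and PBS (limma, Benjamini-Hochberg adjustment), against 0.961% of all tested genes. None passed at any fold either, against 1.76%. At an unadjusted limma p below 0.05 there were 6 genes with a higher level in CTX (14.3%, against 10.5% of all genes) and 3 with a lower level (7.14%, against 9.1%). limma's voom on the rebuilt reads also passed 0 of the 42 after adjustment. Without adjustment it passed 8 (19%, against 20.4% of all genes). The differences were small and narrowly bounded. The log2 fold changes ran from -0.31 for Jarid2 to 0.38 for Kdm2b, and their median size was 0.12, against 0.18 for all tested genes. The median itself was 0.06, against -0.01, with 26 means higher and 16 lower in CTX. The 95% interval of every one of the 42 lay within 2-fold, that of 37 lay within 1.5-fold, and the widest bound, that of Jarid2, was 1.91-fold. The 3 CTX samples all lay above the 3 PBS samples for 8 genes (19%, against 15% of all genes) and all below them for 3 genes (7.14%, against 14.1%). With 75th percentile scaling these counts were 5 and 6 (11.9% and 14.3%, against 12.8% and 17.2% of all genes). These shares lay near the background, and nothing is read from them about the 42 genes.

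**Figure D1:**
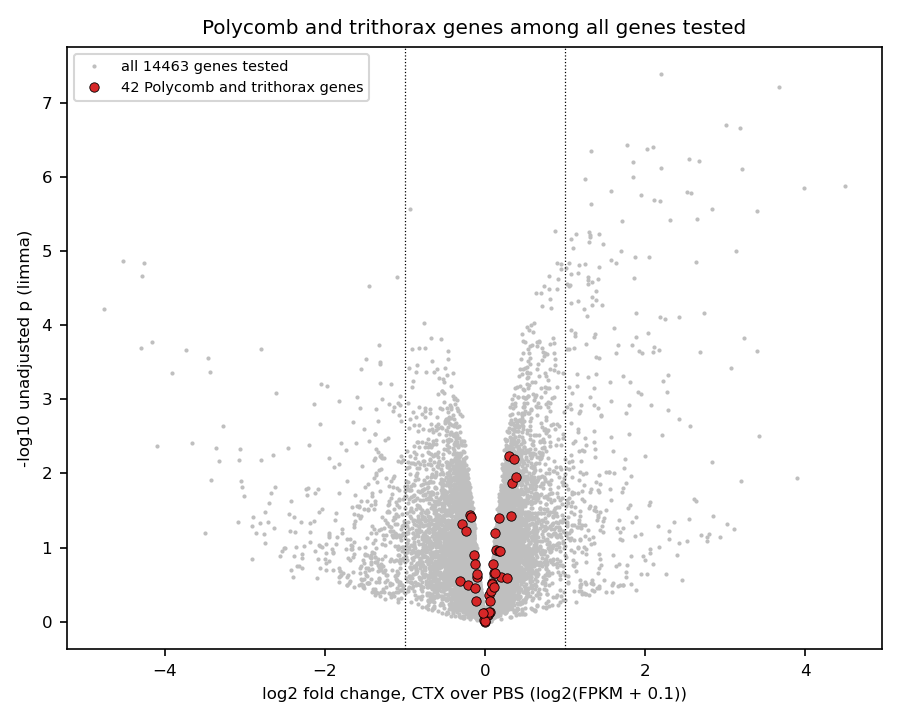
Each point is a gene tested, with its log2 fold change of CTX over PBS on the log2(FPKM + 0.1) scale on the x axis and -log10 of the unadjusted limma p on the y axis. The 42 Polycomb and trithorax genes, in red, sit near the middle between -0.31 and 0.38, well inside the dotted lines that mark 2-fold.

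The levels spanned a wide range. The highest mean was that of Rbbp7 at 125 FPKM and the lowest that of Pcgf5 at 1.15 FPKM. The median gene had a mean of 10.9 FPKM, against 6.15 FPKM for all tested genes, and 32 of the 42 lay above that value. The 8 genes below a mean of 5 FPKM were Phf19, Pcgf5, Cbx7, Phc3, Kdm2b, Asxl2, Kmt2a and Kmt2c. The plot of levels by sample shows that genes differed from each other far more than any of them differed between CTX and PBS.

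**Figure D2:**
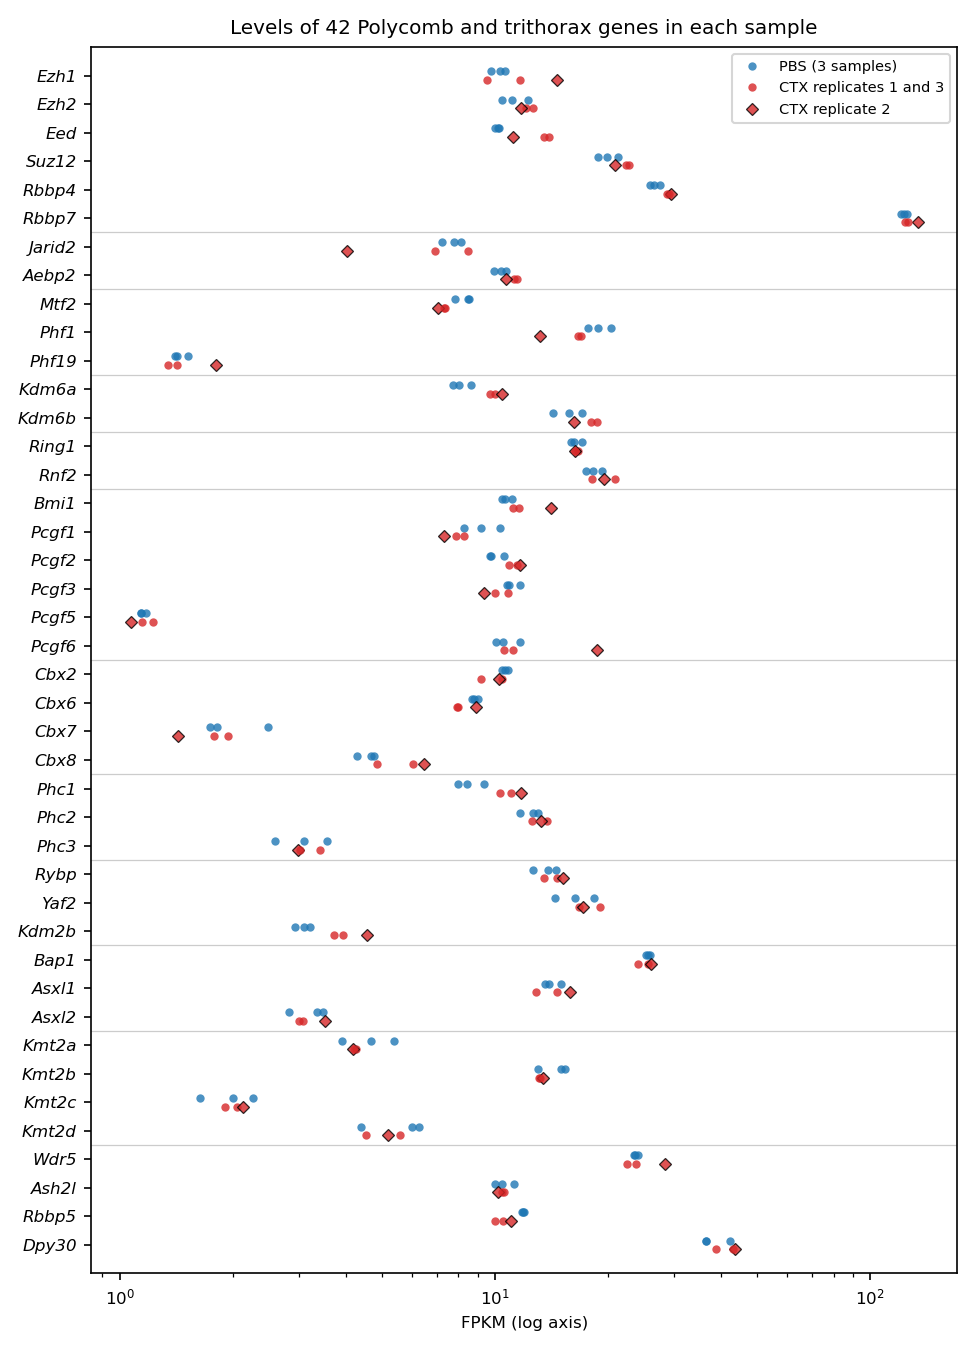
FPKM on a log axis for each of the 42 genes, with 1 point per sample (blue, PBS; red, CTX; diamond, CTX replicate 2) and grey lines between groups of related subunits. Levels run from about 1.15 FPKM for Pcgf5 to 125 FPKM for Rbbp7, and the diamond lies outside the other points for genes such as Jarid2 and Pcgf6.

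All 6 genes of the PRC2 core had a higher mean in CTX, by 0.05 to 0.33 on the log2 scale, and none passed the adjusted test. Ezh2 encodes the main methyltransferase for H3K27 in dividing cells (ENSMUSG00000029687, chromosome 6, 47530139 to 47595341, minus strand). Its FPKM was 10.4, 11.1 and 12.2 in PBS replicates 1, 2 and 3, and 12.1, 11.7 and 12.6 in CTX replicates 1, 2 and 3. The groups overlapped, since PBS replicate 3 lay above CTX replicates 1 and 2. The log2 fold change was 0.11 ± 0.08 (SE) with a 95% interval of -0.09 to 0.31, which is 0.942 to 1.24 times the PBS level (limma, adjusted p = 0.47). Ezh1, the second methyltransferase, which is more typical of resting cells, stood at 10.3, 10.6 and 9.79 FPKM in PBS and 9.52, 14.7 and 11.7 FPKM in CTX. Its highest value was that of CTX replicate 2, and its log2 fold change of 0.20 came to 0.04 without that sample. Both transcripts were present at nearly equal levels. Ezh2 made up 52.3% ± 2.85 of their summed FPKM in PBS and 50.8% ± 5.89 in CTX (SD, n = 3). The log2 ratio of Ezh2 to Ezh1 differed by -0.09 between CTX and PBS (exact two-sided permutation test, p = 0.9, where 0.1 is the smallest p that 3 against 3 samples allow).

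Eed encodes the subunit that binds H3K27me3 and stimulates the enzyme (ENSMUSG00000030619, chromosome 7, 89954654 to 89980983, minus strand). It stood at 9.997, 10.22 and 10.26 FPKM in PBS and at 13.5, 11.2 and 13.9 FPKM in CTX. The groups did not overlap, and replicate 2 was the lowest of the CTX samples. The log2 fold change was 0.33 ± 0.10 (SE, 95% interval 0.10 to 0.57) with an adjusted p of 0.16 in limma. Without CTX replicate 2 it was 0.43 with an adjusted p of 0.024, and Eed was then the only one of the 42 to pass at any fold, against 3.64% of all genes. Suz12, the scaffold of PRC2, stood at 21.3, 18.9 and 19.9 FPKM in PBS and 22.7, 20.9 and 22.3 FPKM in CTX, a log2 fold change of 0.14 with overlapping groups. Rbbp4 and Rbbp7 encode histone-binding subunits that PRC2 shares with other complexes. Rbbp4 ran from 25.9 to 27.5 FPKM in PBS and from 28.8 to 29.4 FPKM in CTX without overlap, with a log2 fold change of 0.13 (limma, adjusted p = 0.28). Rbbp7 overlapped, at 121 to 125 FPKM in PBS and 124 to 134 FPKM in CTX. It supplied 82.2% ± 0.180 of the FPKM of the pair in PBS and 81.4% ± 0.525 in CTX (SD, n = 3).

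The accessory subunits that guide PRC2 to its sites went to both sides of 0. PHF1, MTF2 and PHF19 are the Polycomb-like proteins of the PRC2.1 form. Phf1 stood at 17.7, 20.4 and 18.8 FPKM in PBS and at 16.9, 13.2 and 16.7 FPKM in CTX. Mtf2 stood at 8.48, 8.51 and 7.81 FPKM in PBS and at 7.38, 7.04 and 7.30 FPKM in CTX. For both genes all CTX samples lay below all PBS samples. The log2 fold changes were -0.29 ± 0.12 for Phf1 and -0.19 ± 0.07 for Mtf2 (SE), with adjusted p-values of 0.25 and 0.23 in limma. Without CTX replicate 2 the value for Phf1 was -0.17. Phf19 was low, at 1.41 to 1.52 FPKM in PBS and 1.35 to 1.81 FPKM in CTX, where replicate 2 was the highest. Its log2 fold change of 0.06 was -0.06 without CTX replicate 2. JARID2 and AEBP2 belong to the PRC2.2 form, in which they bind ubiquitinated H2A. Jarid2 stood at 8.10, 7.79 and 7.22 FPKM in PBS and at 8.50, 4.04 and 6.92 FPKM in CTX. Its log2 fold change of -0.31 ± 0.26 (SE) was set by CTX replicate 2, which was 0.524 times the mean of the other CTX samples, and was -0.0045 without it. Aebp2 ran from 9.96 to 10.7 FPKM in PBS and from 10.7 to 11.4 FPKM in CTX, a log2 fold change of 0.10. Of the summed FPKM of the 5 accessory genes, Phf1 held 40.6% ± 2.14 in PBS and 37.1% ± 1.19 in CTX, and Aebp2 held 22.1% ± 0.845 and 26.7% ± 2.18 (SD, n = 3).

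The H3K27 demethylases were both expressed and both had a higher mean in CTX. Kdm6a, the X-linked enzyme also called UTX (ENSMUSG00000037369, chromosome X, 18162575 to 18279936, plus strand), stood at 8.65, 8.05 and 7.75 FPKM in PBS. Its CTX samples stood at 10.01, 10.43 and 9.73 FPKM, all above the PBS samples and close together. The log2 fold change was 0.30 ± 0.07 (SE, 95% interval 0.12 to 0.48), with an adjusted p of 0.12 in limma, the lowest among the 42. Kdm6b, the enzyme also called JMJD3, which is often induced by stress and inflammatory signals, stood at 15.7, 17.0 and 14.3 FPKM in PBS and at 18.7, 16.2 and 18.1 FPKM in CTX. The groups overlapped, the log2 fold change was 0.17 (95% interval -0.05 to 0.39) and the adjusted p was 0.35 in limma. Kdm6b held 65.8% ± 1.87 of the summed FPKM of the pair in PBS and 63.7% ± 2.41 in CTX (SD, n = 3). The log2 ratio of Kdm6b to Kdm6a differed by -0.13 (exact two-sided permutation test, p = 0.6).

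**Figure D3:**
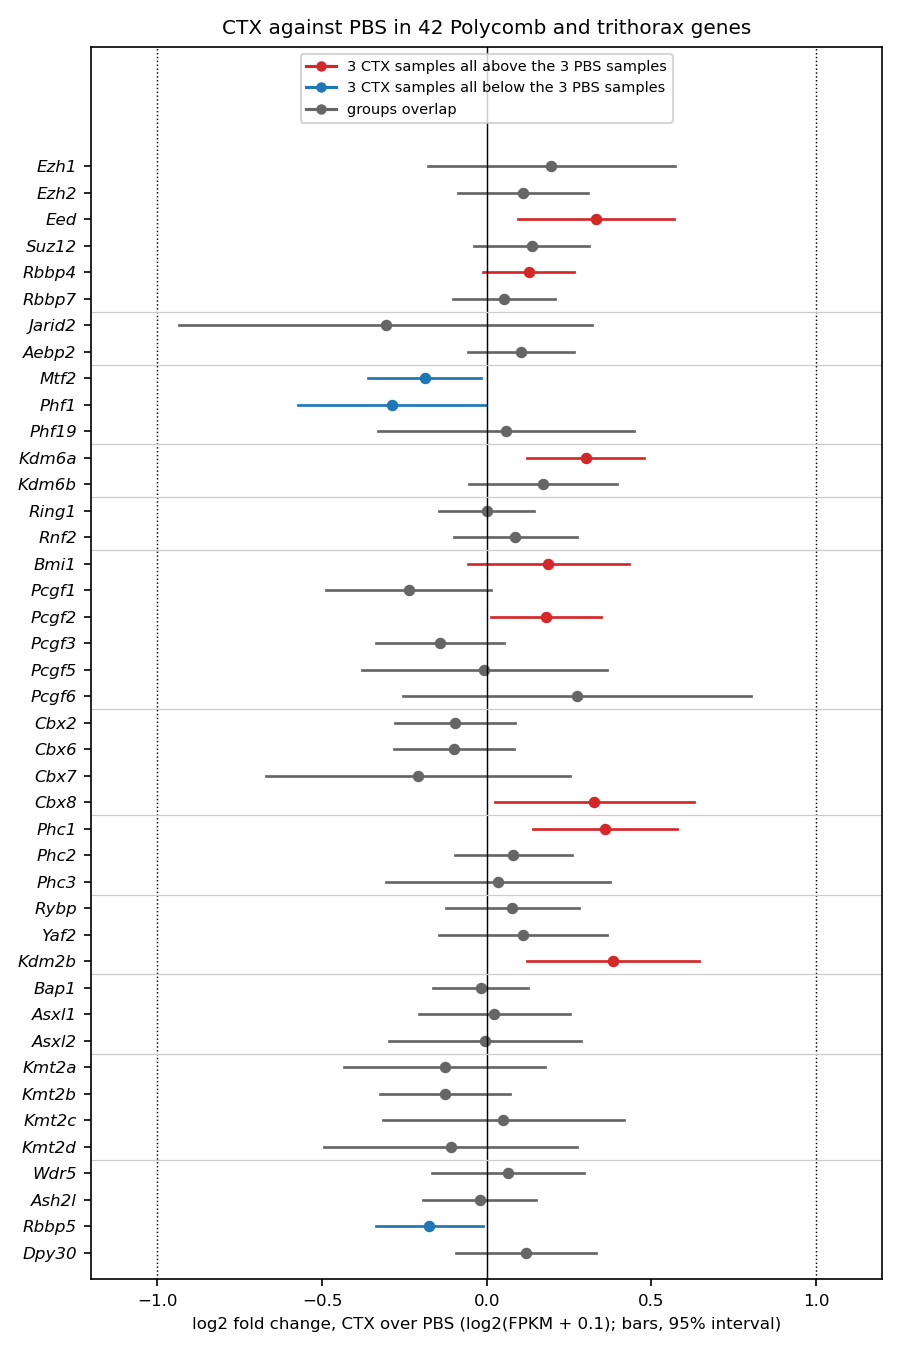
Log2 fold change of CTX over PBS (points) with its 95% interval (bars) for the 42 genes on the log2(FPKM + 0.1) scale, grouped by complex, with dotted lines at 2-fold. The 8 genes whose CTX samples all lay above PBS are red, the 3 whose CTX samples all lay below are blue, and every bar ends inside the dotted lines.

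The ubiquitin ligases at the centre of PRC1 overlapped between the groups. Ring1 ran from 16.0 to 17.1 FPKM in PBS and from 16.3 to 16.6 FPKM in CTX, with a log2 fold change of 0.00 (95% interval -0.14 to 0.14). Rnf2, which encodes RING1B, ran from 17.5 to 19.3 FPKM in PBS and from 18.2 to 20.9 FPKM in CTX, with a log2 fold change of 0.09. The pair was expressed at nearly equal levels, with Rnf2 at 52.7% ± 2.04 of their sum in PBS and 54.3% ± 1.52 in CTX (SD, n = 3).

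The PCGF subunits decide which form of PRC1 a ligase enters, and 5 of the 6 measured were expressed at similar levels. Bmi1 and Pcgf2, which build the canonical PRC1 that reads H3K27me3, both had all CTX samples above all PBS samples. Pcgf2 stood at 9.74, 10.6 and 9.72 FPKM in PBS and at 10.9, 11.7 and 11.4 FPKM in CTX, a log2 fold change of 0.18 ± 0.07 (SE; limma, adjusted p = 0.23). Bmi1 stood at 11.1, 10.6 and 10.4 FPKM in PBS and at 11.6, 14.1 and 11.2 FPKM in CTX, and its log2 fold change of 0.19 was 0.09 without CTX replicate 2. Its CTX replicate 3, at 11.17 FPKM, lay only just above PBS replicate 1, at 11.11 FPKM. Members of the variant forms differed in sign. Pcgf1, of the form with KDM2B, stood at 8.27, 10.4 and 9.21 FPKM in PBS and at 8.30, 7.31 and 7.89 FPKM in CTX, with a log2 fold change of -0.24 and overlapping groups. Pcgf6 stood at 10.5, 11.6 and 10.1 FPKM in PBS and at 10.5, 18.7 and 11.2 FPKM in CTX. CTX replicate 2 was 1.72 times the mean of the other CTX samples, and the log2 fold change of 0.27 was 0.02 without it. Pcgf3 had a log2 fold change of -0.14, which was -0.09 without CTX replicate 2, and Pcgf5, at 1.07 to 1.23 FPKM in all 6 samples, one of -0.01.

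CBX proteins are the chromodomain readers of H3K27me3 in canonical PRC1. Cbx2 was the highest of the 4 measured, at 40.8% ± 1.44 of their summed FPKM in PBS and 38.7% ± 2.43 in CTX, followed by Cbx6 at 33.9% ± 0.340 and 32.0% ± 0.703 (SD, n = 3). Cbx8 stood at 4.76, 4.68 and 4.28 FPKM in PBS and at 4.86, 6.49 and 6.05 FPKM in CTX. The CTX samples all lay above the PBS samples, but CTX replicate 1 did so by only a small margin. The log2 fold change was 0.33 ± 0.12 (SE; limma, adjusted p = 0.23), and it was 0.24 without CTX replicate 2. The share of Cbx8 among the 4 was 17.5% ± 0.659 in PBS and 22.5% ± 2.80 in CTX (SD, n = 3). The other 3 had lower means in CTX, with log2 fold changes of -0.10 for Cbx2, -0.10 for Cbx6 and -0.21 for Cbx7. Cbx7 was low, at 1.82, 2.48 and 1.74 FPKM in PBS and 1.95, 1.43 and 1.78 FPKM in CTX. Its value was -0.09 without CTX replicate 2 and -0.06 without PBS replicate 2.

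The PHC subunits join PRC1 complexes into larger bodies. Phc1 (ENSMUSG00000040669, chromosome 6, 122317731 to 122340561, minus strand) stood at 8.45, 9.35 and 7.96 FPKM in PBS and at 10.3, 11.7 and 11.1 FPKM in CTX, again without overlap. Its log2 fold change was 0.36 ± 0.09 (SE, 95% interval 0.14 to 0.58) with an adjusted p of 0.12 in limma. Phc2 and Phc3 overlapped, with log2 fold changes of 0.08 and 0.03. Phc1 held 35.5% ± 1.72 of the family's summed FPKM in PBS and 40.3% ± 2.48 in CTX, and Phc2 held 51.7% ± 3.14 and 48.2% ± 1.67 (SD, n = 3).

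**Figure D4:**
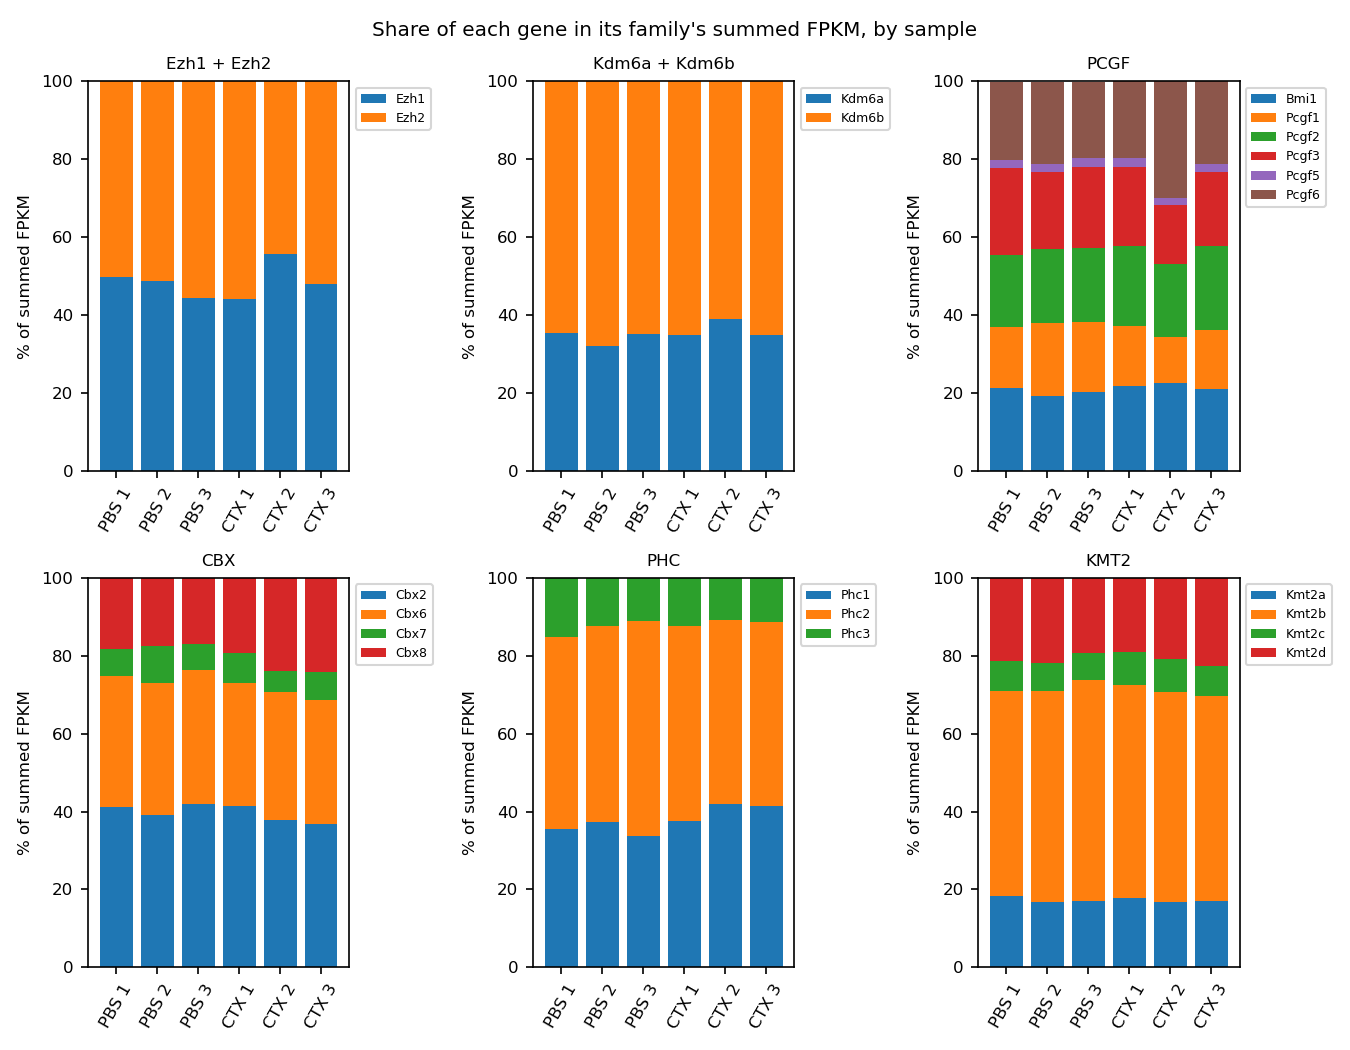
Stacked bars give, for each of the 6 samples, the percent of a family's summed FPKM held by each gene, for the EZH, KDM6, PCGF, CBX, PHC and KMT2 families. The makeup is similar in all samples, with Cbx8 and Phc1 holding a larger part in CTX replicates 2 and 3 and Pcgf6 in CTX replicate 2.

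The subunits of variant PRC1 included the gene with the largest log2 fold change of the 42. KDM2B brings the PCGF1 form of PRC1 to unmethylated CpG islands (ENSMUSG00000029475, chromosome 5, 122870665 to 122989823, minus strand). Kdm2b stood at 3.10, 3.22 and 2.94 FPKM in PBS and at 3.72, 4.56 and 3.93 FPKM in CTX, without overlap. Its log2 fold change was 0.38 ± 0.11 (SE, 95% interval 0.12 to 0.64), with an adjusted p of 0.15 in limma, and it was 0.30 without CTX replicate 2. Rybp and Yaf2, which encode alternative partners of RING1 in variant PRC1, overlapped and had log2 fold changes of 0.08 and 0.11. BAP1 and its ASXL partners form the deubiquitinase that removes the mark of PRC1. Bap1 ran from 25.3 to 25.8 FPKM in PBS and from 24.1 to 26.1 FPKM in CTX, and the log2 fold changes of Bap1, Asxl1 and Asxl2 were -0.02, 0.02 and -0.01.

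On the trithorax side, Kmt2b was the highest of the 4 KMT2 methyltransferases per length, at 54.4% ± 2.12 of their summed FPKM in PBS and 53.8% ± 0.996 in CTX (SD, n = 3). Kmt2b stood at 15.4, 15.0 and 13.0 FPKM in PBS and at 13.2, 13.4 and 13.1 FPKM in CTX. Kmt2d, which acts at enhancers, stood at 6.29, 6.02 and 4.40 FPKM in PBS and at 4.55, 5.19 and 5.60 FPKM in CTX. For both of them the spread among PBS samples was as large as the difference between the groups. The log2 fold changes were -0.13 for Kmt2a, -0.13 for Kmt2b, 0.05 for Kmt2c and -0.11 for Kmt2d. In each of these 4 genes PBS replicate 3 was the lowest PBS sample. PBS replicate 3 was the lowest PBS sample in 25 of the 42 genes. Among the 8 with an exonic length over 10000 bases, it was the lowest in all 8, by little in Pcgf5 and Cbx6. Over all 1112 tested genes of that length, the median deviation of a library from the gene's mean was -0.09 on the log2 scale in PBS replicate 3 and 0.08 in PBS replicate 1, while over genes of up to 1500 bases it was 0.08 and -0.02. Without PBS replicate 3 the log2 fold changes were -0.25 for Kmt2a, -0.20 for Kmt2b, -0.07 for Kmt2c and -0.27 for Kmt2d, and the part of transcript length in these values was not tested.

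WDR5, RBBP5, ASH2L and DPY30 form the core that all KMT2 enzymes share. Rbbp5 stood at 11.85, 11.99 and 11.80 FPKM in PBS and at 10.5, 11.1 and 9.99 FPKM in CTX. Each CTX sample lay below each PBS sample, and the PBS samples were close together. The log2 fold change was -0.17 ± 0.07 (SE, 95% interval -0.34 to -0.01; limma, adjusted p = 0.23). Wdr5, Ash2l and Dpy30 overlapped, with log2 fold changes of 0.06, -0.02 and 0.12. That of Wdr5 was -0.03 without CTX replicate 2.

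CTX replicate 2 lay outside all 5 other samples in 24 of the 42 genes (57.1%), about the share it had among all tested genes (58.0%). The map of deviations shows that it went both ways, high in Pcgf6, Ezh1, Kdm2b and Bmi1 and low in Jarid2, Phf1 and Cbx7. It also differed in the makeup of its RNA, including the granulosa markers given above. The summed FPKM of the 8 leukocyte markers was 19.4 to 23.1 in the PBS samples and 34.8, 65.6 and 25.0 in CTX replicates 1, 2 and 3. Lyz2 made up most of it, at 22.9, 45.8 and 14.7 FPKM in CTX replicates 1, 2 and 3. All 8 had reads in every sample, and 5 of the 8 were tested, all with a higher mean in CTX. Cd14, a receptor of myeloid cells, was the only gene of the other lists that passed, from a mean of 1.07 FPKM in PBS to 2.75 FPKM in CTX (limma, adjusted p = 0.035). The pan-leukocyte gene Ptprc ranged from 0.0640 to 0.0983 FPKM in all 6 samples. Itgam was lower in CTX replicate 2 (0.0561 FPKM) than in any PBS sample. The summed theca markers were 35.6 to 38.3 FPKM in PBS and 8.87 to 34.3 FPKM in CTX, lowest in replicate 2. Cyp17a1 made up most of that sum, and the other 2 theca markers tested, Insl3 and Ptch1, had log2 fold changes of 0.89 and 0.40. The summed endothelial and red blood cell markers were also lowest in CTX replicate 2, at 1.79 and 137 FPKM. In PBS the endothelial sum was 4.54 to 5.45 FPKM and the red blood cell sum 319 to 453 FPKM. In CTX replicates 1 and 3 the sums were 4.06 and 4.16 FPKM, and 359 and 496 FPKM. Cdh5, Kdr, Emcn and the globin genes Hbb-bs, Hbb-bt and Hba-a1 were lowest in CTX replicate 2. Pecam1, Tek and Alas2 lay within their PBS ranges in that sample. The summed oocyte markers were 29.1 to 61.0 FPKM in PBS and 40.2, 73.8 and 68.1 FPKM in CTX replicates 1, 2 and 3. Zp2, Zp3 and Ddx4 were highest in CTX replicate 2, whereas Zp1, Gdf9 and Bmp15 were highest in CTX replicate 3. In bulk RNA, fewer cells of a type and less RNA per cell cannot be told apart, and the part of cell makeup in the differences of the 42 genes was not tested. limma's arrayWeights, which gave CTX replicate 2 a weight of 0.164 and CTX replicate 3 one of 16.6, passed 21 of the 42 (50%), 13 higher and 8 lower, against 39.8% of all genes. In that fit CTX replicate 3 carried most of the weight of its group.

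**Figure D5:**
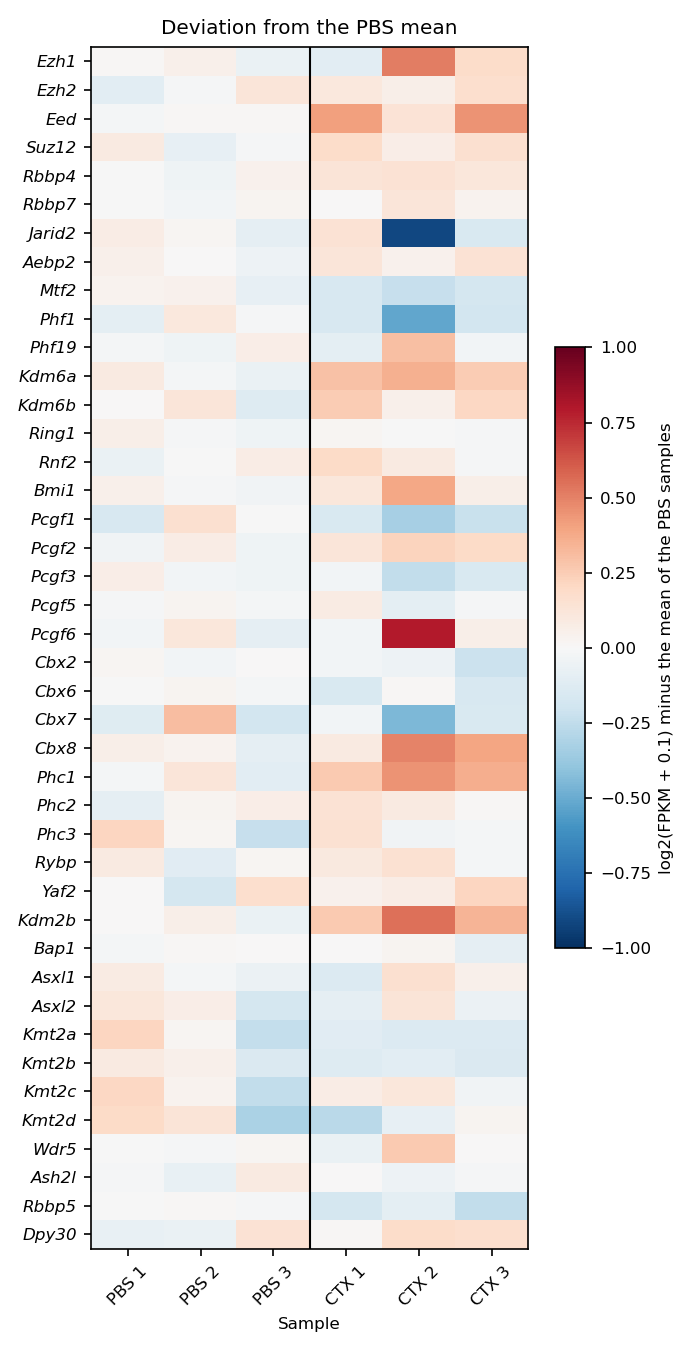
Each cell is log2(FPKM + 0.1) of a gene in a sample minus the mean of the 3 PBS samples, from -1 (blue) to 1 (red). CTX replicate 2 holds the deepest colours, blue in Jarid2 and red in Pcgf6, while rows such as Ring1 and Bap1 are pale in all 6 samples.

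The lists of related genes also held 0 genes each past the adjusted threshold in limma. Of all tested genes, 10.5% had a higher and 9.1% a lower level in CTX at an unadjusted limma p below 0.05. The lists are small, and nothing is read from their counts against these shares. Among 24 tested partners of Polycomb complexes outside the 42, 5 had a higher and 1 a lower level in CTX at an unadjusted p below 0.05. Of 24 SWI/SNF remodeller subunits, which oppose Polycomb, the counts were 4 and 2. Among 15 genes of H3K9 methylation they were 1 and 2, among 9 further COMPASS subunits 1 and 2, and among 5 H3K4 demethylases 0 and 1. For 18 proliferation genes the counts were 6 and 3, with a median size of 0.33 on the log2 scale, against 0.12 for the 42 genes. Classical targets of Polycomb silencing were mostly below the level for testing. Of 39 Hox genes, 9 were tested and 8 had no read, and none of the 9 had an unadjusted p below 0.05. The median log2 fold change of the 9 was 0.16, with 6 means higher and 3 lower in CTX. Their median size was 0.23, against 0.18 for all tested genes. Without overlap of the groups, 2 of the 9 were higher and 0 lower in CTX, against 15% and 14.1% of all tested genes. Nothing is read from these small counts. Of 27 other developmental regulators that Polycomb silences in most tissues, 0 reached the level for testing, 8 had no read, and their reads summed to 23 to 28 in the PBS samples and 24 to 46 in the CTX samples. These values are transcript levels. Protein levels and histone marks were not analysed here.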

How the data were processed

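The authors deposited FPKM values of 54532 genes in 6 samples, with GRCm38 coordinates. The submitters' processing notes name mm10, CASAVA 1.8, fastp, HISAT2 2.0.5, featureCounts 1.5.0-p3 and DESeq2 1.20.0, with no role or order. Strandedness is not given in the sources used here, so reads of overlapping genes on opposite strands may be mixed. The deposited group means, fold changes and p-values of the authors' own comparison were not used. Groups came from the labels (PBS or CTX, 3 samples each). GCs of different mice were pooled in each sample, so p-values measure the spread between pools.

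CTX and PBS were compared on log2(FPKM + 0.1) with limma 3.58.1 (lmFit and eBayes with trend, R 4.3.3). The 14463 genes whose FPKM averaged 0.5 or more entered, with Benjamini-Hochberg adjustment over all of them. The pseudocount shrinks fold changes of low genes. After multiplication by gene length, 100% of the deposited FPKM values above 0 lay within 0.1 of a whole read, and these reads were rebuilt for voom. Within-sample ratios were compared with exact two-sided permutation tests. Alternatives were pseudocounts of 1 and 0.01, no filter, a filter at 5 FPKM, other scalings (median-of-ratios, 75th percentile, library totals, quantile), the replicate block, arrayWeights, no trend, voom and each sample left out. Every one of the 42 genes is named. Other lists are given as counts, with genes past the adjusted threshold named. Other cell type markers named were chosen after their values were seen. The genes and lists were chosen with earlier results of these data known. Promoter sequences are from RefSeq on GRCm38.p6. SciPy 1.17.1 and matplotlib 3.10.9 (Python 3.11.15) served for the exact tests and the figures.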

Additional observations from a re-analysis of the deposited data

How the results depend on the processing

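The absence of a call above 2-fold among the 42 genes held under all alternatives run. With any fold, 0 genes passed in all but arrayWeights (21) and the fits with a sample left out (0 to 1). Leaving out CTX replicate 2 gave the 1, Eed. The number of all genes past the adjusted threshold and more than 2-fold was 139, but 50 with the replicate block, 657 with arrayWeights, 420 with unadjusted p-values and 58 to 205 with a sample left out. At any fold it was 254, but 53 with the replicate block, 5753 with arrayWeights and 70 to 526 with a sample left out. Samples with the same number showed little shared deviation from their group means (correlations of 0.056, 0.024 and 0.006). With 3 samples in a group, this cannot exclude that the number marks a pair. The log2 fold change of Ezh2 was 0.11 with the replicate block and 0.18 with arrayWeights, where it passed. It was 0.06 without PBS replicate 1 and 0.17 without PBS replicate 3. The 8 genes with CTX above PBS became 5 with 75th percentile scaling (11.9%, against 12.8% of all genes). The 3 with CTX below PBS became 6 (14.3%) with 75th percentile scaling or library totals, against 17.2% and 18.2% of all genes. With a sample left out they were 3 to 7, highest without PBS replicate 3 or CTX replicate 1 (16.7%, against 18.9% and 25.1%). The log2 ratio of Ezh2 to Ezh1 ranged from -0.24 to 0.10 with a sample left out, and was 0.01 without PBS replicate 3 and 0.10 without CTX replicate 2.

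Of the recomputed changes of single genes, 694 kept their direction and side of the threshold, 22 passed it anew and 32 reversed, in 12 genes whose reported log2 fold change was at most 0.09 in size. With arrayWeights these were Ash2l (0.0082), Kmt2c (-0.0666), Phc3 (-0.0425), Phf19 (-0.0146), Ring1 (-0.0129) and Rnf2 (-0.0003). With quantile normalization they were Asxl2 (0.0116), Pcgf5 (0.0527), Rbbp7 (-0.0027) and Ring1 (-0.0215). With library totals they were Asxl1 (-0.0078) and Ring1 (-0.0313), and Ring1 also reversed with 75th percentile scaling (-0.0234) and voom (-0.0021). With a sample left out the values ran from -0.0605 to 0.0245 for Ash2l, -0.045 to 0.1052 for Asxl1, -0.0927 to 0.0505 for Asxl2, -0.0433 to 0.0158 for Bap1, -0.0704 to 0.1539 for Kmt2c, -0.0537 to 0.0368 for Pcgf5, -0.0829 to 0.1427 for Phc3, -0.0645 to 0.1365 for Phf19, -0.0213 to 0.0275 for Ring1 and -0.0331 to 0.1313 for Wdr5. The cause was not tested. The genes that reversed ran from Phf19, with as few as 123 reads in a sample, to Rbbp7, with up to 6911. The part of read depth in these reversals was not tested either.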
